A study of Mus musculus with 6 samples.

Results

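The liver keeps blood glucose steady by making glucose and by storing or releasing glycogen. The data below cover 10 genes of these routes, chosen by name, of 13493 genes tested in mouse liver. Of these, G6pc, Pck1, Fbp1 and Pcx encode enzymes of gluconeogenesis. Slc37a4 and Slc2a2 encode transporters of glucose-6-phosphate and of glucose. Gys2, Pygl, Ppp1r3b and Ppp1r3c encode the enzymes of glycogen and their regulators. Each of the 10 was matched by its symbol to the array's annotation. All 10 had a probe that carried no other symbol, and the probe with the highest mean over the arrays stood for the gene.

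Gene expression was measured on 6 Affymetrix arrays, 1 for each liver sample of a male C57BL/6 mouse, 8 weeks old at the start. A group of 3 had vehicle for 7 days and then a high-fat diet for 6 weeks (vehicle), and the other group of 3 had Vascepa for 7 days and then the same diet (Vascepa). Vascepa is icosapent ethyl, an ester of eicosapentaenoic acid, which is an omega-3 fatty acid of fish oil. Both groups ate the high-fat diet, and no group on another diet was analysed here. The labels call the model prediabetic and do not say whether each sample is its own animal. The p-values therefore rest on the spread of these samples alone, and that spread may be technical.

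In gluconeogenesis, pyruvate carboxylase (Pcx) and phosphoenolpyruvate carboxykinase (Pck1) lead carbon from pyruvate to phosphoenolpyruvate, fructose-1,6-bisphosphatase (Fbp1) reverses a step of glycolysis, and glucose-6-phosphatase (G6pc) frees glucose from its phosphate. Glucagon and glucocorticoids raise transcription of G6pc and Pck1 in the fasted liver, and insulin lowers it. Glycogen synthase (Gys2) and glycogen phosphorylase (Pygl) are controlled mostly by phosphorylation, and Ppp1r3b and Ppp1r3c encode subunits that bring protein phosphatase 1 to glycogen.

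The sequences before the starts of G6pc and Pck1 are shown because these are the enzymes of the group best known for hormonal control of transcription. Both are 250 bases long, end at the base before the annotated start, and come from RefSeq on the build GRCm38.p6, both on the plus strand. G6pc lies at chr11:101367466-101367715 and Pck1 at chr2:173152823-173153072. Capitals mark matches to the motifs named after them.
G6pc: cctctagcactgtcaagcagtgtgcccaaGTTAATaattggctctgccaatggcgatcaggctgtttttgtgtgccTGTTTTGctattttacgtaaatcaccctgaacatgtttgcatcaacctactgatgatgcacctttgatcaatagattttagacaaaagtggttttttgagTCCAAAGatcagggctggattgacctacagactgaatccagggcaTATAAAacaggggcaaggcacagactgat
Pck1: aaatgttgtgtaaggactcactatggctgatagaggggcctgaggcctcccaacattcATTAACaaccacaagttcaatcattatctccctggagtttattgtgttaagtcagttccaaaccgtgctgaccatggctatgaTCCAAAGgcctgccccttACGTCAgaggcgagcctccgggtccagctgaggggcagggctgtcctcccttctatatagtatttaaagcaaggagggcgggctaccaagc

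Motifs were searched on both strands in the 250 bases before 32851 annotated starts, and 8 of the 10 genes had a window there, 11 windows in all. Gys2 and Ppp1r3b were not among them. The HNF4 core TCCAAAG was found before G6pc, Pck1 and Pcx, and in 4.70% of all windows. The HNF1 core GTTAAT was found before G6pc and Pck1, in the latter on the minus strand, and in 6.43% of all windows. The insulin response letters TGTTTTG lay 174 to 168 bases before the start of G6pc, and 5.56% of all windows held them. The cAMP response core ACGTCA lay 91 to 86 bases before the start of Pck1 and was also found before Slc37a4, in overlapping windows of 2 of its starts, against 6.47% of all windows. No member's window held the whole element TGACGTCA, which contains that core, the FOXO and FOXA core GTAAACA or the glucocorticoid letters AGAACA, found in 1.55%, 3.17% and 16.1% of all windows. The E-box CACGTG was found before Pcx and Ppp1r3c (6.02% of all windows) and the TATA box TATAAA before G6pc and Slc37a4 (12.4%). A match describes letters in this window and is not a measured site, and the arrays did not measure binding.

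Levels below are the deposited log2 expression values, on which a difference of 1 is a doubling, and differences are Vascepa minus vehicle with limma's moderated standard error (SE). Of the 10 genes, 9 were lower and 1 higher in the mean of the Vascepa livers, where 60.1% of all tested genes were lower. All 10 lie among the 7211 genes at or above the 75th percentile level, of which 73.3% were lower. The median difference of the 10 was −0.22, that of all tested genes −0.063, and that of those 7211 genes −0.14. None of the 10 passed limma's adjusted p under 0.05, which 0% of all genes passed, and none had an unadjusted p under 0.05, against 2.68% of all genes. In 0 of the 10 did the groups lie apart without overlap, against 8.24% of all genes and 495 of those 7211. Without Vascepa replicate 3, 3 of the 10 were lower and their median difference was 0.066. Of all tested genes 53.1% were then lower, with a median of −0.016, and of those 7211 genes 58.0%, with a median of −0.037.

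**Figure D1:**
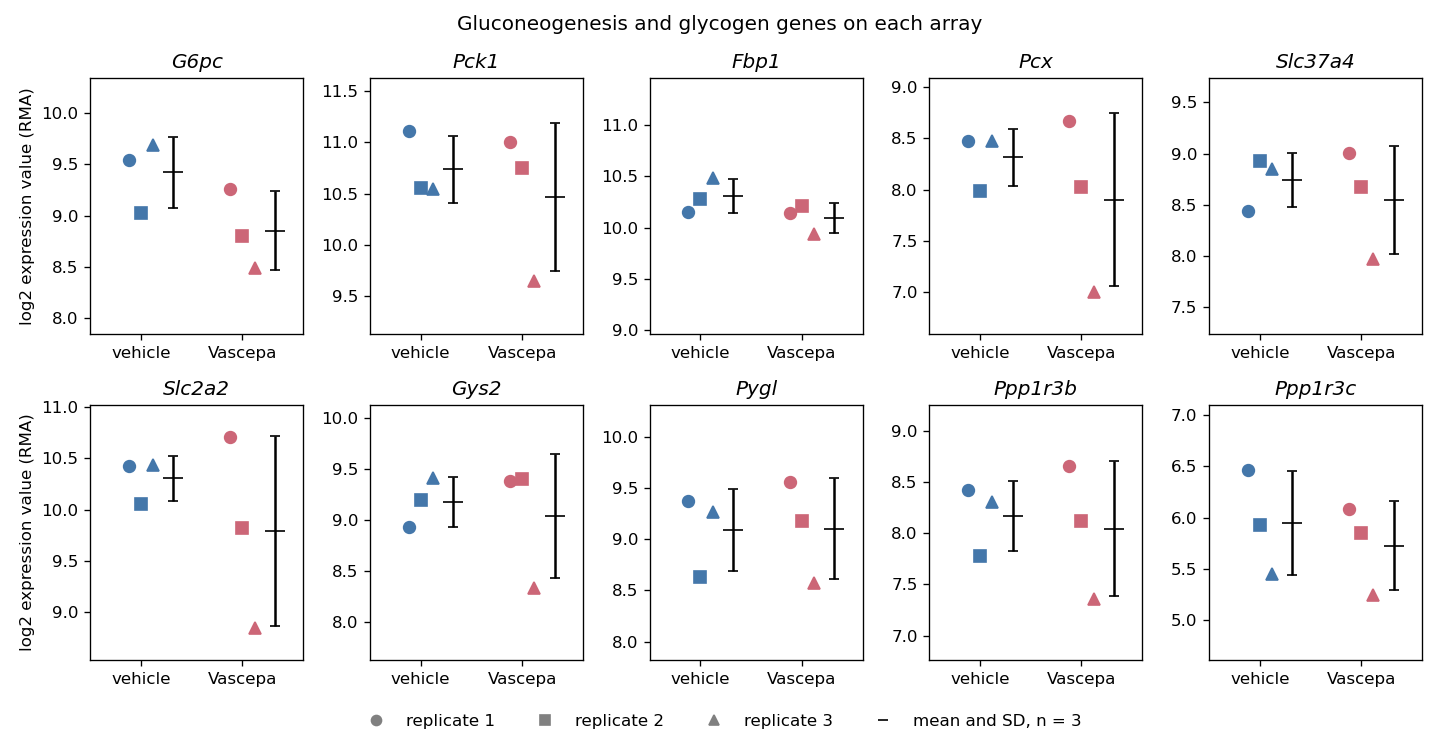
The log2 expression value (vertical axis, each panel spanning the same width) of each gene on the vehicle arrays (blue) and the Vascepa arrays (red), with symbols for the replicate and black bars for the mean and SD of n = 3. The triangle of Vascepa replicate 3 is the lowest point of every panel, and the groups overlap in all 10.

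G6pc, which encodes the enzyme that releases free glucose, had the largest difference and the smallest p of the 10. It read 9.55, 9.03 and 9.69 in vehicle livers and 9.26, 8.80 and 8.49 in Vascepa livers. Vascepa replicates 2 and 3 lay under every vehicle array, and Vascepa replicate 1 lay above vehicle replicate 2. The mean was 9.42 ± 0.35 in vehicle and 8.85 ± 0.39 in Vascepa livers (SD, n = 3 each), 1.48-fold lower. The difference of −0.57 ± 0.27 (SE) had a 95% interval from −1.19 to 0.051 and did not pass (limma, adjusted p = 0.976). It remained below 0 without any of the 6 arrays in turn, between −0.78 and −0.39.

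Slc37a4, the transporter that carries glucose-6-phosphate to G6pc's active site in the endoplasmic reticulum, read 8.44, 8.93 and 8.85 in vehicle livers and 9.004, 8.67 and 7.97 in Vascepa livers. Vascepa replicate 1 was the highest of all 6 and Vascepa replicate 3 the lowest. Its difference was −0.19 ± 0.29 (SE), and 0.097 without Vascepa replicate 3. Slc2a2, which encodes the glucose transporter GLUT2 of the hepatocyte membrane, read 10.43, 10.05 and 10.43 in vehicle and 10.71, 9.82 and 8.84 in Vascepa livers. Its Vascepa arrays spanned 1.86 log2 units, the widest span of the 10 genes in either group, against 0.38 among the vehicle arrays. Its difference was −0.51 ± 0.43 (95% interval −1.50 to 0.47), and −0.041 without Vascepa replicate 3.

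Pck1, which makes phosphoenolpyruvate in the cytosol, read 11.11, 10.55 and 10.55 in vehicle livers and 11.00, 10.75 and 9.64 in Vascepa livers. Vascepa replicates 1 and 2 lay within the vehicle range and Vascepa replicate 3 lay 0.91 under the lowest of the other arrays. The difference was −0.27 ± 0.36, and 0.14 without that array. Pcx, which supplies oxaloacetate from pyruvate, read 8.48, 7.99 and 8.48 in vehicle and 8.67, 8.03 and 7.00 in Vascepa livers. Its difference was −0.41 ± 0.40, and 0.036 without Vascepa replicate 3, which lay 0.99 under the next array.

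Fbp1, which removes a phosphate from fructose-1,6-bisphosphate, varied least of the 10, over 0.55 log2 units in all 6 arrays. It read 10.15, 10.28 and 10.48 in vehicle livers and 10.14, 10.21 and 9.93 in Vascepa livers. Vascepa replicate 2 lay inside the vehicle range, and the other 2 lay below it, Vascepa replicate 1 only by a little. Its difference was −0.21 ± 0.18 and had the narrowest interval of the 10, from −0.64 to 0.21. It was below 0 without any of the 6 arrays in turn, between −0.29 and −0.12.

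**Figure D2:**
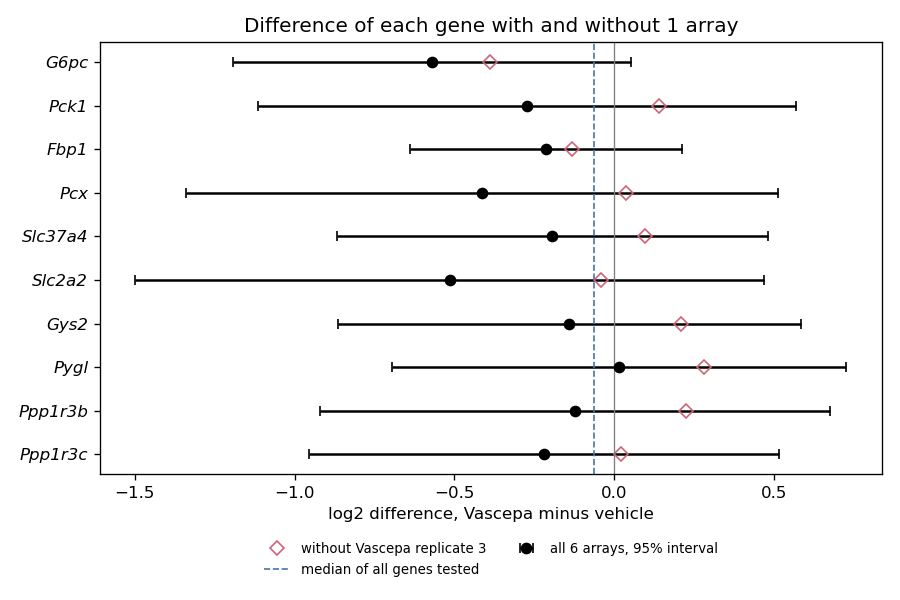
Log2 difference of each gene, Vascepa minus vehicle (horizontal axis), with limma's 95% interval over all 6 arrays (black) and the difference without Vascepa replicate 3 (open red diamonds). All 10 intervals cross 0, and without that array G6pc, Fbp1 and Slc2a2 alone stay to the left of 0.

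Gys2, the glycogen synthase of liver, read 8.93, 9.19 and 9.41 in vehicle livers and 9.38, 9.40 and 8.34 in Vascepa livers. Vascepa replicates 1 and 2 lay near the top of the vehicle range and Vascepa replicate 3 lay below it, with a difference of −0.14 ± 0.31 in all and 0.21 without that array. Pygl, the glycogen phosphorylase of liver, read 9.38, 8.63 and 9.26 in vehicle and 9.56, 9.18 and 8.58 in Vascepa livers. It was the gene with a higher Vascepa mean, by 0.015 ± 0.31 (95% interval −0.70 to 0.73). Its sign turned with each array centred on its median, to −0.061.

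Ppp1r3b, which encodes the main glycogen-targeting subunit of protein phosphatase 1 in liver, read 8.42, 7.78 and 8.31 in vehicle livers and 8.66, 8.12 and 7.35 in Vascepa livers. Vascepa replicate 1 was the highest array and Vascepa replicate 3 the lowest, and the difference was −0.12 ± 0.35. A second, dimmer probe of the gene did not show the same order, at 4.49, 4.63 and 4.30 in vehicle and 4.52, 4.94 and 4.20 in Vascepa livers, with a mean difference of 0.077. Ppp1r3c, which encodes a related subunit, read 6.46, 5.93 and 5.45 in vehicle and 6.08, 5.85 and 5.24 in Vascepa livers. Its vehicle arrays spanned 1.01 log2 units, the widest vehicle span of the 10 genes, and its difference was −0.22 ± 0.32.

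All 10 genes were lowest on Vascepa replicate 3. This array was the lowest of the 6 in 38.8% of all tested genes and in 54.9% of the genes at or above the 75th percentile level. Relative to the vehicle mean, the median of the 10 genes was −0.83 on that array, and the median of the genes at or above that level was −0.37. Among these brighter genes, Slc2a2 and Pcx lay at the 2.73 and 4.99 percentiles of that array's deviations, Pck1 at 11.1, G6pc at 17.6 and Fbp1 at 49.8. On Vascepa replicates 1 and 2 the median of the 10 lay at 0.26 and −0.081, and on vehicle replicates 1, 2 and 3 at 0.15, −0.22 and 0.15. Vascepa replicate 1 was the highest array in 5 of the 10 genes, Pcx, Slc37a4, Slc2a2, Pygl and Ppp1r3b. It was the highest in 22.9% of all genes and in 28.2% of these brighter genes. The spread (SD) was larger among Vascepa than among vehicle arrays in 8 of the 10, the exceptions being Fbp1 and Ppp1r3c. The same count was not made over all genes, so it is not known to be particular to the 10.

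Array properties moved with these values. The mean level of 80 small nucleolar RNA genes was 5.19, 5.97 and 5.41 in vehicle livers and 5.05, 6.07 and 6.59 in Vascepa livers. The 3 arrays where it was highest were the 3 where the median of the 10 genes was below the vehicle mean, and Vascepa replicate 1, where it was lowest, had the highest median. With that level as a covariate, the median difference of the 10 was −0.042 and 6 were lower. Of all tested genes 55.8% were then lower, with a median of −0.030. The SD of all probes was 2.01 on Vascepa replicate 3 and between 2.09 and 2.15 on the others, and that array had the lowest mean correlation with the others across genes, 0.938 against 0.959 to 0.973. The part of these properties in the differences was not tested.

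**Figure D3:**
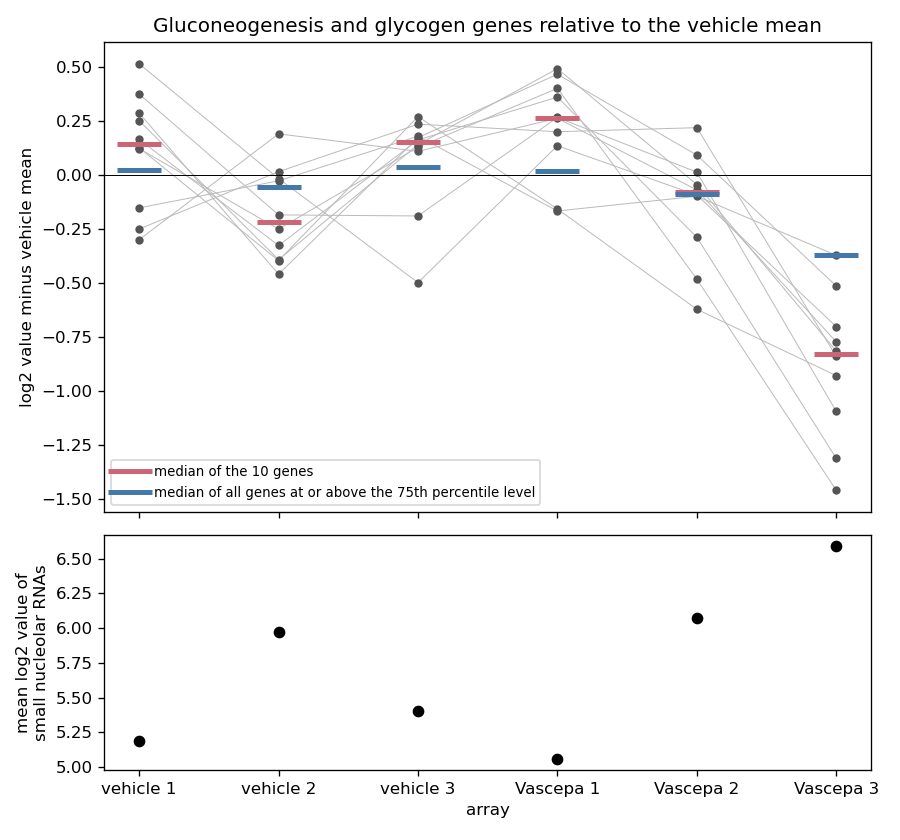
Top, log2 value minus the vehicle mean for each of the 10 genes (grey points, joined by gene) on each array, with their median (red bars) and the median of all genes at or above the 75th percentile level (blue bars). Bottom, mean log2 value of 80 small nucleolar RNA genes. On Vascepa replicate 3 the red bar lies at −0.83 and the blue bar at −0.37, and the small nucleolar RNA mean is highest, at 6.59.

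The liver label was borne out by the markers. The 9 hepatocyte markers with a probe of their own, of 10 listed, included Alb at 13.18 to 13.33, and their summed level was 15.32 to 15.33 (log2) in vehicle and 15.09 to 15.33 in Vascepa livers, lowest on Vascepa replicate 3. Kidney, fat and muscle also express some of the 10 genes, and markers of these tissues were dim. The 6 kidney tubule markers summed to 5.06 to 5.20 in vehicle and 5.16 to 5.45 in Vascepa livers, 4 adipocyte markers of 6 to 4.29 to 4.51 and 4.36 to 4.64, and 6 skeletal muscle markers to 5.60 to 5.71 and 5.87 to 5.93. Of the resident cells, 6 Kupffer cell markers summed to 9.12 to 9.25 in vehicle and 8.63 to 9.25 in Vascepa livers, and 6 endothelial markers to 9.08 to 9.28 and 9.04 to 9.20. In each of these 2 sets 5 of the 6 markers had a lower Vascepa mean, where 60.1% of all tested genes did. The Kupffer cell sum of 9.25 in Vascepa livers was on Vascepa replicate 3, where Clec4f had its highest value, 7.93. The 5 cholangiocyte markers of 6 summed to 5.68 to 6.12 and 5.51 to 6.14, the 6 stellate cell markers to 10.26 to 10.36 and 10.03 to 10.43, and Slc4a1, the 1 erythroid marker of 5 with a probe of its own, read 3.35 to 4.39 and 3.45 to 4.34. In bulk tissue, fewer cells of a type and less RNA per cell cannot be told apart.

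The 10 genes also varied together over the arrays. All 10 share each array's RNA and intensity scale, so the following describes 6 arrays and carries no test. Over them all 45 pairs had a Pearson r above 0, from 0.026 for Fbp1 and Ppp1r3c to 0.99 for Pcx and Slc2a2, with a median of 0.71. Without Vascepa replicate 3 the median over 5 arrays was 0.20 and 28 pairs stayed above 0. Pygl and Ppp1r3b, with r = 0.97 over 6 arrays and 0.98 over 5, and Pcx and Slc2a2, with 0.99 and 0.96, stayed close. Pck1 and Fbp1 went from 0.40 to −0.80.

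The genes most like the mean profile of the 10 were Elavl1, Acox2, Cep135, Aldh6a1 and Cct8, with r between 0.998 and 0.999 over the 6 arrays. Acox2, a peroxisomal oxidase of bile acid precursors, read 8.36, 7.88 and 8.24 in vehicle livers and 8.54, 7.93 and 6.85 in Vascepa livers. Aldh6a1, a mitochondrial enzyme of valine breakdown, read 10.33, 9.95 and 10.22 in vehicle and 10.42, 9.96 and 9.09 in Vascepa livers. The profile was a common one, and 2148 of the 13483 other genes, 15.9%, had an r of at least 0.9 with it.

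Around the 10 genes, 93 other genes of glucose metabolism were listed in 4 groups, of which 81 had a probe of their own and 77 lay above the intensity filter. None of the 77 passed limma's adjusted threshold, which 0% of all genes passed. In the mean of Vascepa livers 63 were lower and 14 higher, and 54 were lowest on Vascepa replicate 3. Of all tested genes 60.1% were lower and 38.8% were lowest on that array. Of the genes at or above the 75th percentile level, 73.3% and 54.9% were. At an unadjusted p under 0.05 there was 1, Pck2, against 2.68% of all genes. The groups did not overlap in 5 of the 77, against 8.24% of all genes. For the lists below, the median of all tested genes was −0.063, and that of the genes at or above the 75th percentile level −0.14. Without Vascepa replicate 3 these medians were −0.016 and −0.037, and 53.1% and 58.0% of these genes were lower.

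Of 17 other genes of gluconeogenesis and substrate entry, 14 were lower and 3 higher, with a median of −0.20. Without Vascepa replicate 3, 11 were lower and the median was −0.035. Pck2, the mitochondrial form of Pck1's enzyme, had a higher mean in Vascepa livers. It read 3.75, 3.40 and 3.55 in vehicle livers and 4.33, 4.06 and 3.84 in Vascepa livers, with no overlap. Its probe was dim, and both means, 3.57 and 4.08, lay under the 75th percentile level of 4.34. The difference of 0.51 ± 0.20 was 1.42-fold and missed the adjusted threshold (limma, adjusted p = 0.976). It was between 0.38 and 0.62 without any of the 6 arrays in turn. With each array centred on its median, the Pck2 difference was 0.43 (limma, unadjusted p = 0.099). Whether Pck1 and Pck2 differ in their response was not tested. Gpd1, which links glycerol to the pathway, differed by −0.50 ± 0.28, and by −0.25 when Vascepa replicate 3 was left out and −0.78 when Vascepa replicate 1 was. Ldha, which makes pyruvate from lactate and the reverse, and Tpi1, a step shared with glycolysis, were lower without overlap, by −0.28 ± 0.16 and −0.32 ± 0.22. Both were named after their values were seen. The Ldha probe was dim, at 3.78 in vehicle and 3.49 in Vascepa livers, under the 75th percentile level of 4.34. In Tpi1 the nearest arrays of the groups, vehicle replicate 1 and Vascepa replicate 1, both read 8.23.

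Of 18 other glycogen genes, 12 were lower and 6 higher, with a median of −0.16. Without Vascepa replicate 3, 10 were lower and the median was −0.016. Pgm2, of the phosphoglucomutase family, read 4.71, 4.65 and 4.57 in vehicle and 4.39, 4.37 and 4.30 in Vascepa livers, with no overlap and a difference of −0.29 ± 0.16 (limma, adjusted p = 0.976). Phkg2, the catalytic subunit of phosphorylase kinase in liver, was also lower without overlap, by −0.19 ± 0.16, and was named after its values were seen. Ppp1r3g, a further glycogen-targeting subunit, differed by 0.33 ± 0.21 at levels of 2.68 in vehicle and 3.00 in Vascepa livers, near the intensity filter of 2.65. Its difference was 0.16 without Vascepa replicate 3.

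Of 20 genes of glucose phosphorylation and glycolysis, 18 were lower and 2 higher, with a median of −0.12. Without Vascepa replicate 3, 12 were lower and the median was −0.055. Slc2a1, the glucose transporter GLUT1, and Pfkl, the phosphofructokinase of liver, differed by −0.62 ± 0.31 and −0.42 ± 0.25. Pklr, the pyruvate kinase of liver, whose reaction gluconeogenesis bypasses, differed by −0.33 ± 0.30. The differences of Slc2a1, Pfkl and Pklr were −0.32, −0.21 and −0.087 without Vascepa replicate 3, and without Vascepa replicate 1 they were −0.82, −0.67 and −0.57. Pklr stood at −0.12 without vehicle replicate 3. Slc2a1 differed by −0.35 when all its probes were averaged.

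Of 22 genes of hormonal and transcriptional control, 19 were lower and 3 higher, with a median of −0.28. Without Vascepa replicate 3, 11 of them were lower and the median was 0.0056. Foxo1, a transcription factor that insulin holds out of the nucleus, differed by −0.32 ± 0.44, and its relative Foxo3 by −0.58 ± 0.30. These differences were 0.19 and −0.35 without Vascepa replicate 3, and −0.73 and −0.90 without Vascepa replicate 1. Ppargc1a, a coactivator induced in fasting, differed by −0.29 ± 0.28, and Igfbp1, a target of FOXO factors, by −0.42 ± 0.33. Leaving out single arrays moved Ppargc1a between −0.56 (without Vascepa replicate 1) and −0.12 (without vehicle replicate 1), and Igfbp1 between −0.69 (without vehicle replicate 2) and −0.068 (without vehicle replicate 1). Irs2, an adaptor of the insulin receptor, read 5.24, 3.76 and 5.13 in vehicle livers and 5.50, 4.22 and 2.99 in Vascepa livers, so both groups were spread widely, and differed by −0.47 ± 0.64, by −1.10 without Vascepa replicate 1 and by 0.15 without Vascepa replicate 3. Onecut1, a hepatocyte transcription factor, differed by 0.85 ± 0.64 with vehicle arrays at 4.69, 5.22 and 7.34 and Vascepa arrays at 7.19, 6.47 and 6.15. The difference was 1.65 without vehicle replicate 3, the highest array. It was 0.32 and 0.59 when vehicle replicate 1 or 2 was left out, and 0.56 when Vascepa replicate 1 was.

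**Figure D4:**
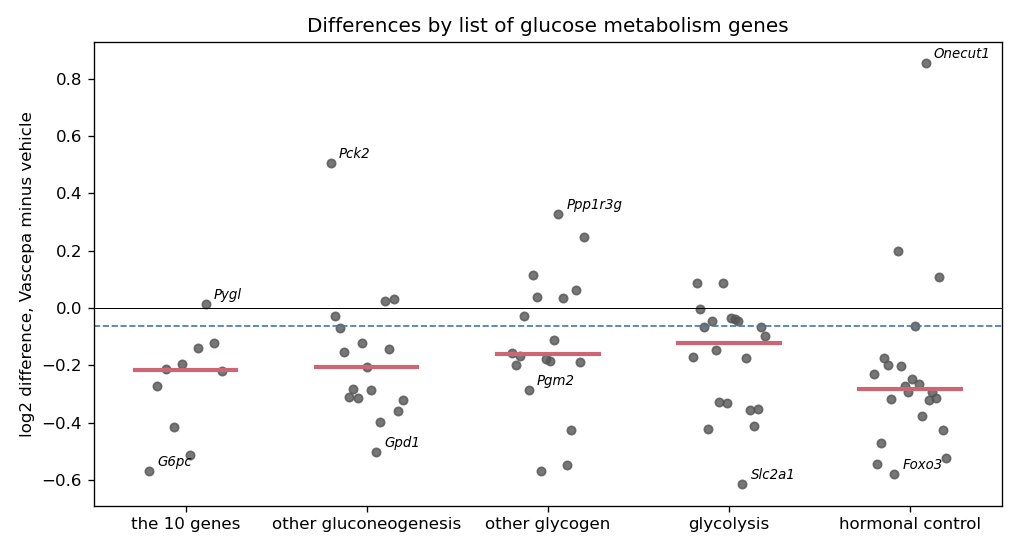
Log2 difference, Vascepa minus vehicle (vertical axis), of each tested gene of the 5 lists (points), with each list's median (red bars) and the median of all tested genes (dashed line, −0.063). The list medians lie between −0.28 and −0.12, and Pck2 at 0.51 and Onecut1 at 0.85 stand above the rest of their lists. The median of the genes at or above the 75th percentile level, −0.14, is not drawn.

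The arrays could not show small differences in these genes. The 95% intervals reached from 0.43 to 0.98 log2 units on either side of the estimate, so that for Slc2a2 a 2.82-fold lower and a 1.38-fold higher level both lay inside. The SE of Slc2a2 went from 0.43 to 0.29 without Vascepa replicate 3, and that of Pcx from 0.40 to 0.27. Among these genes the SE of Fbp1 alone was larger without that array, 0.19 against 0.18. The part of the number of arrays in the width of the intervals was not tested.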

How the data were processed

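The authors deposited log2 expression values, 1 per probe (transcript cluster) and array, made with Affymetrix Expression Console and RMA per the submitters' processing notes (versions and genome build: not given in the sources used here). Differences between dim probes are compressed by RMA. Of 41345 probes, 23521 had 1 gene symbol, 1814 several and 16010 no entry in the platform annotation; 23328 symbols were updated by gene ID through RefSeq's GRCm38.p6 table. Without scan dates, no batch was tested.

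Probes with 1 symbol and a mean of at least 2.65 (the median over all probes) were kept, 1 per gene by highest mean. Vascepa was compared with vehicle by limma 3.58.1 (R 4.3.3, lmFit and eBayes, no covariate), with Benjamini-Hochberg adjustment over all 13493 genes, after a test on simulated data. Named were all 10 members, the 2 genes of smallest p in each other list, Pklr, Foxo1, Ppargc1a, Irs2 and Igfbp1, and the 5 named genes most like the members' mean; others are marked. Members and lists were chosen with earlier results of these data known. Alternatives changed the filter, normalization, prior, array weights, block, covariate, probe choice and arrays.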

Additional observations from a re-analysis of the deposited data

How the results depend on the processing

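Across all genes, 362 had an unadjusted p under 0.05. The count was 757 without an intensity filter, 106 with a filter at the 75th percentile, 827 with the small RNA level as covariate, 5902 with array weights, and 141 to 2018 without single arrays (198 when vehicle replicate 1 was left out, 141 for vehicle replicate 3, 221 for Vascepa replicate 2 and 2018 for Vascepa replicate 1). With each array centred on its median, the share of them that was higher went from 39.0% to 16.9%. Array weights, whose fit stopped before it converged, gave Vascepa replicate 2 a weight of 39.5 and no other array more than 2.33. Of the settings run, they alone put members past the adjusted threshold, 2 of them, G6pc at −0.77 and Slc2a2 at −0.56 (limma, adjusted p = 0.00385 and 0.0182), and 3 members had an unadjusted p under 0.05. They also turned Gys2 to 0.095, Pck1 to 0.099, Ppp1r3c to 0.16, Pygl to −0.014 and Onecut1 to −0.11, and 7 other named genes and 4100 genes in all passed. The small RNA covariate turned Gys2 to 0.020, Pck1 to 0.017, Ppp1r3b to 0.19, Foxo1 to 0.091 and Irs2 to 0.17, and centring turned Pygl to −0.061.

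Without single arrays, no member passed the adjusted threshold, and the members at an unadjusted p under 0.05 went from 0 to 3 (1 without vehicle replicate 2, 3 without Vascepa replicate 1). Of all 13493 genes, 255 were under it without vehicle replicate 2 and 2018 without Vascepa replicate 1. The number of lower members ran from 3 to 10 and their median from −0.43 to 0.066, with 10 lower without Vascepa replicate 1, Vascepa replicate 2 or vehicle replicate 2, the lowest median without Vascepa replicate 1, and the opposite ends of both without Vascepa replicate 3. Of all tested genes, 58.6% were lower without Vascepa replicate 1, 61.2% without Vascepa replicate 2 and 59.2% without vehicle replicate 2. The share was 53.1% without Vascepa replicate 3. Ranges were −0.32 to 0.21 for Gys2, −0.54 to 0.14 for Pck1, −0.80 to 0.036 for Pcx, −0.43 to 0.22 for Ppp1r3b, −0.47 to 0.038 for Ppp1r3c, −0.21 to 0.28 for Pygl, −0.42 to 0.097 for Slc37a4, −0.73 to 0.19 for Foxo1 and −1.10 to 0.15 for Irs2. Lower genes of hormonal control numbered 11 without Vascepa replicate 3. The counts of lower genes without that array were added after seeing the data for all 4 other lists. G6pc, Fbp1 and Slc2a2 kept their sign in every setting run. Pck2 and Ppp1r3g lay under the 75th percentile filter and have no value there. With the replicate block no named gene passed the adjusted threshold (G6pc −0.57, adjusted p = 0.946), while Foxo3 and Slc2a1 came under an unadjusted p of 0.05, as did 438 genes in all. The labels do not say that replicate numbers pair the arrays. Deviations of same-numbered arrays correlated at 0.61, 0.11 and −0.13, and those of differently numbered arrays at −0.63 to 0.57. These values cannot decide pairing, because the deviations of 3 arrays in a group depend on one another. The causes of these changes were not tested.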
